A study of Saccharomyces cerevisiae with 4 samples.

Results

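The 10 genes described here act in the phosphate supply of the budding yeast Saccharomyces cerevisiae: PHO84, PHO89, SPL2, PHO5, PHO8, PHM8, VTC1, VTC2, VTC3 and VTC4. Their products take up phosphate or control its uptake, free it from organic phosphates, or store it as polyphosphate. The genes were chosen by gene symbol, and all 10 had a probe set of their own among the 5656 genes measured in the series. VTC4 had 2 probe sets and the other 9 genes had 1 each. Expression was measured on Affymetrix Yeast Genome S98 arrays with total RNA of exponentially growing cells. There were 4 strains with 1 array each: the wild type W303-1A, 2 single mutants null for UBP10 or for SIR4, and a double mutant null for both. UBP10 encodes a ubiquitin protease that acts on histone H2B, and SIR4 a subunit of the complex that silences telomeres and the silent mating cassettes. How the genes were deleted, whether each mutant is 1 clone, and the phosphate content of the medium are not given in the sources used here. With 1 array per strain no difference below has a standard error or a p-value.

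Yeast senses its phosphate supply through the PHO pathway. When phosphate is plentiful, the cyclin-dependent kinase Pho85 with its cyclin Pho80 phosphorylates the transcription factor Pho4 and keeps it out of the nucleus. When phosphate is scarce, Pho81 inhibits the kinase, and Pho4 turns on genes for uptake, for secreted phosphatases and for the vacuolar transporter chaperone (VTC) complex, which makes polyphosphate and moves it into the vacuole.

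The values are average-difference intensities, written as units, which are linear and can be negative. A floor of 6.67 units was set at 3 times the noise SD of 2.22 units, and lower values were raised to it before ratios were taken. Ratios were taken relative to the median ratio over those genes that passed the floor on both arrays of a pair. A ratio of at least 2 in either direction was called, provided that the brighter value was at least 13.3 units. That median log2 ratio was -0.04 for the ubp10 mutant against the wild type and 0.01 for the double mutant against the sir4 mutant. It was 0.49 for the sir4 mutant against the wild type, 0.54 for the double mutant against the wild type and 0.50 for the double mutant against the ubp10 mutant. Fold differences below are relative to it unless they are said to be as deposited. Levels of different genes come from different probes and were not compared.

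The targeted gene UBP10 read 247.9 units in wild-type cells, 5.7 in the ubp10 mutant, 269.2 in the sir4 mutant and 4 in the double mutant. The dim SIR4 probe set read 10.8, 4.9, 20.7 and 15.5 units in the same order, so it does not check the sir4 labels, and what is said of the loss of SIR4 depends on the label. On the array labelled sir4 mutant the 3′ probe set of the actin gene ACT1 was 86.9-fold brighter than the 5′ probe set, against 1.1- to 1.5-fold on the other 3 arrays. The middle probe set of ACT1 was also low there, at 176.2 units. It read 1682.2 in the wild type, 2095.4 in the ubp10 mutant and 1010.9 in the double mutant. The part of this loss of 5′ and middle signal in the values of that array was not tested. The a-specific mating genes that mark the labelled strain summed to 2309.3 units in wild-type cells and 1975.2 in the ubp10 mutant. They summed to 1642.4 on the array labelled sir4 mutant and to 65.9 in the double mutant. The array labelled sir4 mutant thus kept a signal that the double mutant, also labelled as lacking SIR4, had lost. The reason was not tested, and the difference further limits what is said of the loss of SIR4. The 4 alpha-specific genes summed to 48.4 to 68.7 units on the 4 arrays. Between 69.4% and 73.7% of probe sets lay above the floor on each array. Probe sets of the same gene were the only repeat measurement within an array. In the ubp10 mutant against the wild type their log2 ratios spanned a median of 0.98 over 222 genes with more than 1 usable probe set. The median span was 1.18 over 171 genes in the sir4 mutant against the wild type and 0.54 over 223 genes in the double mutant against the wild type. It was 1.02 over 227 genes in the double mutant against the ubp10 mutant and 1.17 over 178 genes in the double mutant against the sir4 mutant. A 2-fold difference, 1 log2 unit, is thus close to the median span in all but the comparison of the double mutant with the wild type. The RNA came from whole cultures, in which fewer cells with a transcript and less of it per cell cannot be told apart.

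The ubp10 mutant held the lowest value of most of the phosphate genes. Of the 10, 8 were lowest there, all but PHO8 and PHM8, both as deposited and relative to the median ratios. Among the 5015 genes bright enough for a call, 43.5% were lowest there as deposited and 32.9% relative to the median ratios. As deposited, 9 of the 10 were highest on the array labelled sir4 mutant, all but PHM8, where 38.4% of those genes were. Relative to the median ratios 7 were, without VTC1 and PHO8, where 28.4% of those genes were. The full order with the ubp10 mutant lowest, then the wild type, the double mutant and the sir4 mutant was that of 7 members as deposited, against 21.7% of those genes. Relative to the median ratios it was that of 4, PHO89, PHO5, SPL2 and VTC2, against 12.4%. PHO84, VTC3 and VTC4 left it because their wild-type values then lay above those of the double mutant. The plot of the members' levels by array shows the values as deposited.

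**Figure D1:**
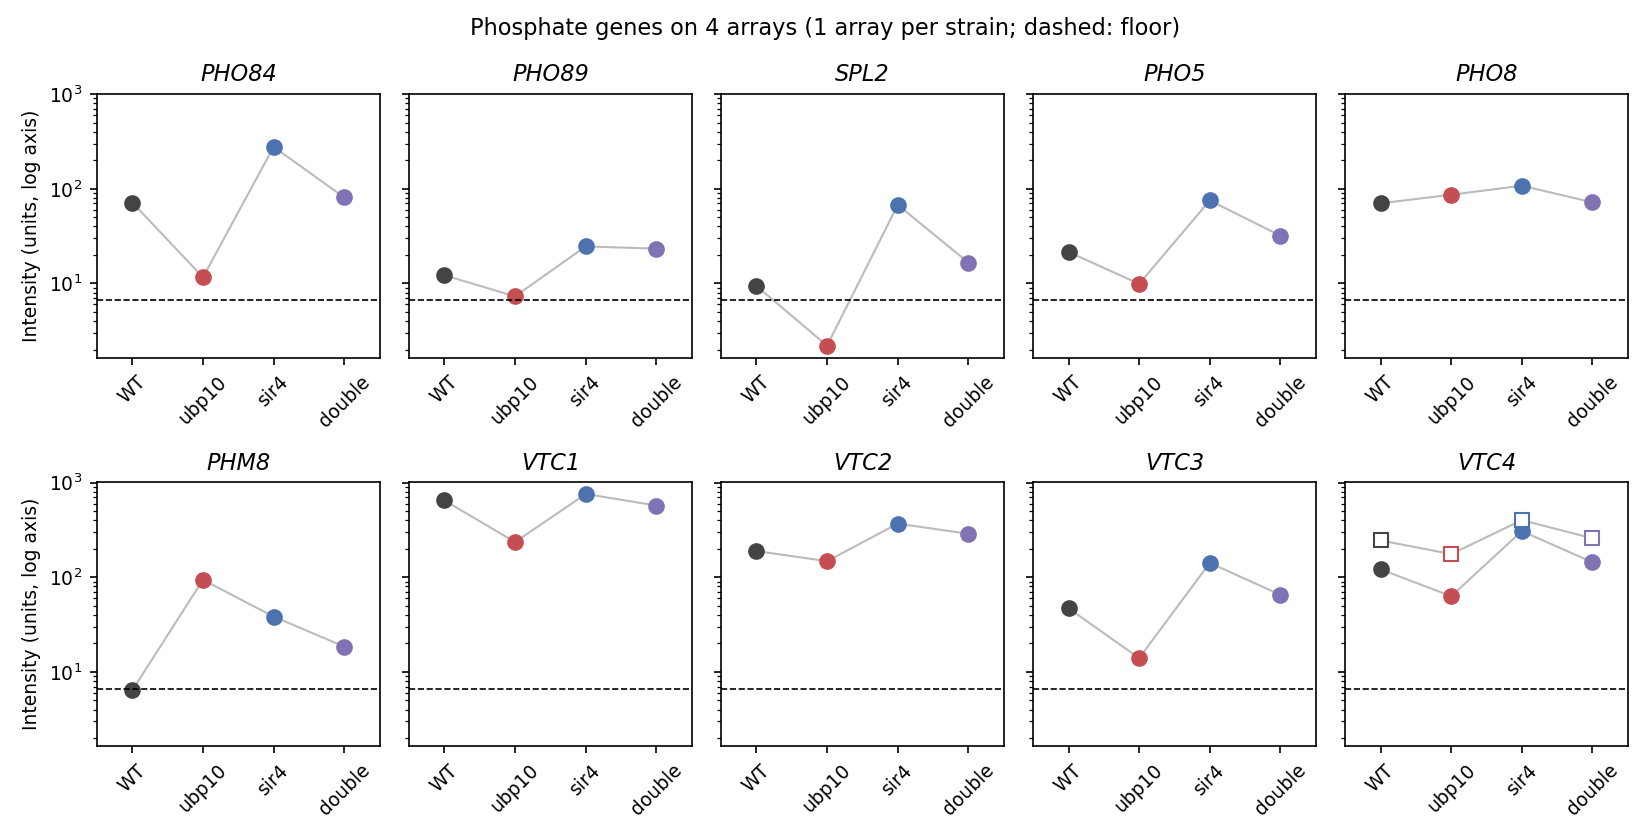
Intensity in units (log axis) of each of the 10 genes on the 4 arrays, 1 array per strain; the dashed line is the floor of 6.67 units, grey lines only join the points of 1 probe set, and open squares are the second probe set of VTC4. PHO84 spans 11.6 to 277.3 units, PHO8 only 70.2 to 107.7, and as deposited PHM8 alone is highest in the ubp10 mutant.

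The transporters were examined first. PHO84 (YML123C), the high-affinity phosphate transporter that works with protons, read 71.5 units in wild-type cells, 11.6 in the ubp10 mutant, 277.3 in the sir4 mutant and 81 in the double mutant. Its highest value was 23.9 times its lowest as deposited, the widest span among the 8 members above the floor on all 4 arrays. The ubp10 mutant and the wild type differed by more than the 2-fold rule, as did the double mutant and the sir4 mutant, whereas the double mutant and the wild type did not. PHO89 (YBR296C), the high-affinity transporter that works with sodium, was dim, with 12.2 units in wild-type cells, 7.3 in the ubp10 mutant, 24.6 in the sir4 mutant and 23.3 in the double mutant. None of its neighbours in that order differed by 2-fold relative to the median ratio. SPL2 (YHR136C), which encodes a small protein that holds down low-affinity phosphate uptake, read 9.4, 2.2, 67.6 and 16.6 units in the same order of strains. It was under the floor in the ubp10 mutant and stood out in the sir4 mutant, where it was higher than in its nearest neighbour, the double mutant, by 4.09-fold.

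The phosphatases did not share one pattern. PHO5 (YBR093C), the secreted acid phosphatase that low phosphate induces, read 21.5 units in wild-type cells, 9.9 in the ubp10 mutant, 75.2 in the sir4 mutant and 31.9 in the double mutant. As deposited it had the order of PHO84 over a narrower span, 7.6-fold, while relative to the median ratios its value in the double mutant lay above that in the wild type and that of PHO84 below it. PHO3, its close relative and neighbour, may share signal with it, and the probe set of PHO3 had another order, with 486.9, 217.2, 188.9 and 163.7 units in the same strains. PHO8 (YDR481C), the vacuolar alkaline phosphatase, stayed within 1.53-fold as deposited, with 70.2, 86.6, 107.7 and 72 units, and was called in none of the 5 comparisons. PHM8 (YER037W), a phosphatase of lysophosphatidic acid and nucleotides, read 6.4 units in wild-type cells, 94.1 in the ubp10 mutant, 38.4 in the sir4 mutant and 18.5 in the double mutant. As deposited it was the one member at its highest where UBP10 alone was missing, and relative to the median ratios PHO8 was too. It was the one member at the floor in the wild type.

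The subunits of the VTC complex moved by unequal amounts. VTC4 (YJL012C), the subunit that polymerises phosphate, read 121.4 and 245.1 units on its 2 probe sets in the wild type, 63.1 and 175.8 in the ubp10 mutant, 307.8 and 401.6 in the sir4 mutant, and 143.8 and 257.9 in the double mutant. Both probe sets gave the same order of the arrays. Their log2 ratios differed by 0.17 to 0.64 over the 5 comparisons, which was under the median span of genes with several probe sets in each. VTC3 (YPL019C), a regulatory subunit, read 47 units in wild-type cells, 14 in the ubp10 mutant, 141.9 in the sir4 mutant and 65.2 in the double mutant. Its span was 10.1-fold as deposited. VTC2 (YFL004W), the subunit that takes the place of VTC3 in another form of the complex, spanned only 2.49-fold, with 189.2, 148, 369.1 and 287.8 units in the same order. VTC1 (YER072W), the small membrane subunit, read 649.3, 235.4, 758.3 and 573.1 units. It was low in the ubp10 mutant and within 1.32-fold as deposited among the other 3 arrays. No neighbouring pair of arrays in the order of VTC1, VTC2 or VTC4 differed by 2-fold relative to the median ratio.

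Removal of UBP10 alone came with lower PHO84, VTC3, VTC1 and PHO5 and with higher PHM8. These 4 of 10 members were called lower and 1 was called higher, where 7.64% of all genes were called lower and 9.90% higher. PHO84 was 5.99-fold lower in the ubp10 mutant than in the wild type. Only 3 of 5656 genes, PHO84 and UBP10 among them, had a ratio as low. VTC3 was 3.26-fold lower, VTC1 2.68-fold and PHO5 2.11-fold, the last just inside the 2-fold rule. PHM8 was at least 14.5-fold higher, since its wild-type value lay at the floor, and 22 genes had a ratio at least as high. The other 5 members were not called: VTC4 had a log2 ratio of -0.67, PHO89 of -0.70, VTC2 of -0.31 and PHO8 of 0.34. SPL2 had a bound of at least 1.37-fold lower, because both its values were near or under the floor. The median log2 ratio of the 10 was -0.69, with SPL2 and PHM8 at their bounds, against 0.04 over all genes.

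Removal of SIR4 alone, read from the array labelled sir4 mutant, came with higher SPL2, PHM8, PHO84, PHO5 and VTC3. These 5 of 10 members were called higher and 0 lower, where 6.03% of all genes were called higher and 9.65% lower. SPL2 was 5.11-fold higher than in the wild type, and 24 genes had a ratio at least as high. PHM8 was at least 4.09-fold higher, PHO84 2.76-fold, PHO5 2.48-fold and VTC3 2.14-fold. VTC4 had a log2 ratio of 0.53, PHO89 of 0.52, VTC2 of 0.47, PHO8 of 0.12 and VTC1 of -0.27. The median of the 10 was 0.82, against -0.09 over all genes. On the values as deposited 7 members were called higher, where 19.8% of all genes were, and the 2 added were PHO89 and VTC4.

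**Figure D2:**
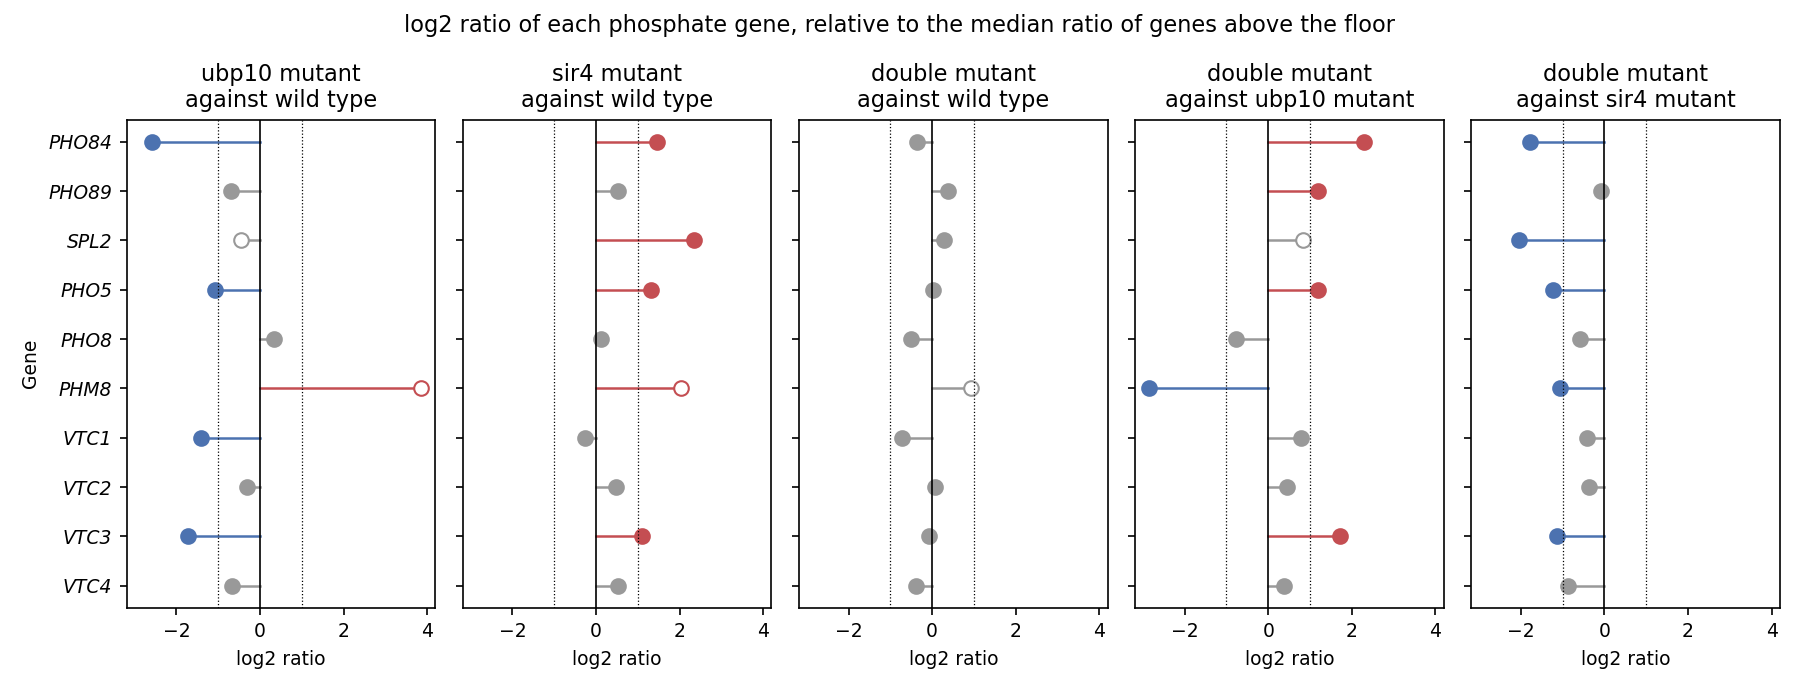
log2 ratio of each gene in the 5 comparisons, relative to the median ratio of the pair (solid line at 0, dotted lines at 2-fold); red points were called higher, blue points lower, grey points not called, and open points are bounds against a value at the floor. No gene was called in the double mutant against the wild type, where the log2 ratios run from -0.72 to 0.93.

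None of the 10 genes was called in the double mutant against the wild type. With 4.30% of all genes called higher and 6.63% lower, 0 members were called in either direction, and 5 had a log2 ratio above 0 and 5 below. PHO84, with 81 units against 71.5, had a log2 ratio of -0.36, VTC3 of -0.07 and PHO5 of 0.03. The lowest ratio was that of VTC1, at -0.72. The highest was that of PHM8, a bound of at least 0.93. As deposited, PHM8 was at least 2.77-fold higher and was called, where 18.6% of all genes were. The log2 ratios of PHO84, VTC3 and PHO5 were then 0.18, 0.47 and 0.57. VTC1 alone of the 10 lay below 0 as deposited, at -0.18, so the even split by sign holds only relative to the median ratio. This comparison and that of the double mutant with the ubp10 mutant make no use of the array labelled sir4 mutant.

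Against the ubp10 mutant, the double mutant had higher PHO84, VTC3, PHO5 and PHO89 and lower PHM8. These 4 members were called higher and 1 lower, where 13.4% of all genes were called higher and 13.2% lower. PHO84 was 4.94-fold higher, and 37 genes had a ratio at least as high. VTC3 was 3.29-fold higher, PHO5 2.28-fold and PHO89 2.26-fold. PHM8 was 7.19-fold lower. SPL2 (at least 1.76-fold higher), VTC1 (log2 ratio 0.78), VTC2 (0.46), VTC4 (0.37) and PHO8 (-0.77) were not called. As deposited, 6 members were called higher, with SPL2 and VTC1 added, where 28.3% of all genes were.

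Against the array labelled sir4 mutant, the double mutant had lower SPL2, PHO84, PHO5, VTC3 and PHM8, and none of the 10 was higher even by sign. These 5 members were called lower and 0 higher, where 3.15% of all genes were called lower and 7.90% higher. SPL2 was 4.09-fold lower, PHO84 3.44-fold, PHO5 2.37-fold, VTC3 2.18-fold and PHM8 2.08-fold. VTC4 had a log2 ratio of -0.87, PHO8 of -0.59, VTC1 of -0.41, VTC2 of -0.36 and PHO89 of -0.08. The median of the 10 was -0.97, against -0.01 over all genes. VTC4 was called on neither side, although 1 of its probe sets was 2.15-fold lower and the other 1.56-fold.

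The design crosses the deletions, so removal of UBP10 can be read with SIR4 present and with SIR4 missing, from pairs that share no array. PHO84, PHO5 and VTC3 were called lower in both pairs, 3 of 10 members, where 0.513% of all genes were. By sign, 7 of the 8 members above the floor on all 4 arrays were lower in both pairs, against 28.8% of the 4642 genes above the floor there. PHO8 was the exception. Removal of SIR4 can likewise be read with and without UBP10, from the same 4 arrays paired the other way. The same genes, PHO84, PHO5 and VTC3, were called higher in both of those pairs, where 2.37% of all genes were. Some of these calls changed with the processing. Under another normalization, cyclic loess, PHO84 alone of these genes kept both higher calls. VTC3 (0.86 in the sir4 mutant) and PHO5 (0.95 in the double mutant) each lost a call. With the ratio for a call raised to 3, none of them kept both higher calls. PHO84 alone then kept both lower calls on removal of UBP10. With the floor doubled PHO5 lost a call in each reading. By sign, 6 of the 8 members were higher in both, against 33.8% of those genes, with VTC1 and PHO8 as the exceptions. VTC1 was an exception through the sir4 mutant against the wild type, at -0.27, and lay above 0 there as deposited, at 0.22. Each reading has a pair that includes the array labelled sir4 mutant, whose ACT1 signal was uneven. High values on that array enter both the lower calls on removal of UBP10 and the higher calls on removal of SIR4. Low values on the ubp10 mutant array likewise enter the lower calls where SIR4 was present and the higher calls where UBP10 was missing. The readings of UBP10 and of SIR4 removal are therefore not independent of each other.

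**Figure D3:**
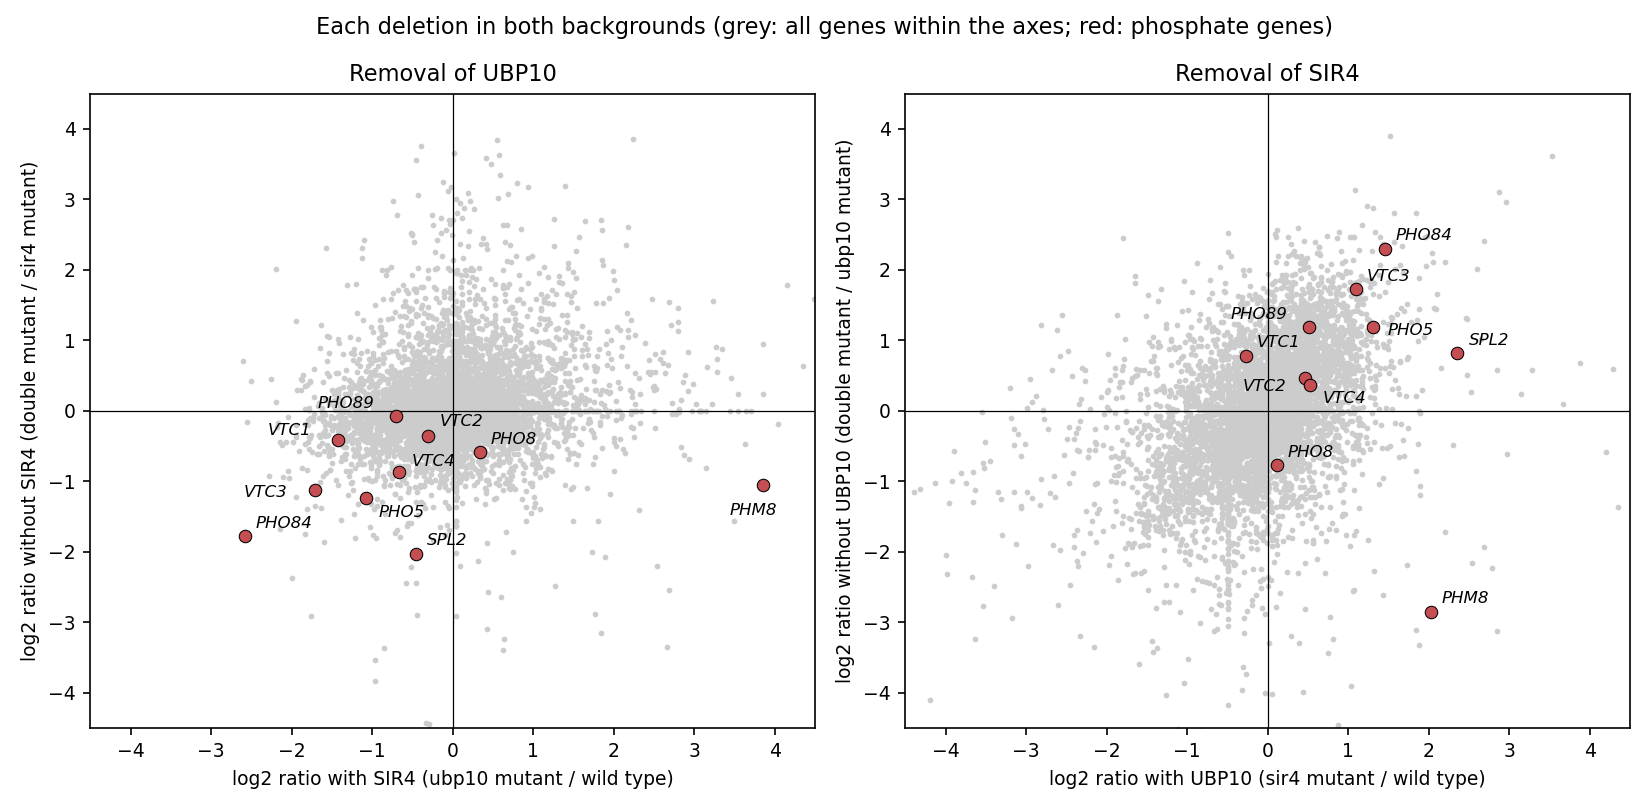
log2 ratio on removal of UBP10 with SIR4 (horizontal) and without SIR4 (vertical) at left, and on removal of SIR4 with and without UBP10 at right, each relative to its median ratio; grey points are all genes within the axes and red points the 10 phosphate genes. PHO84, PHO5 and VTC3 lie at or below -1 on both axes at left and at or above 1 on both at right, while PHM8 lies on opposite sides of 0.

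The log2 ratios on removal of UBP10 differed between the backgrounds by unequal amounts. For PHO84 the value without SIR4 minus the value with SIR4 was 0.80, for VTC1 1.01, for PHO89 0.62 and for VTC3 0.58. It was -0.05 for VTC2, -0.16 for PHO5, -0.20 for VTC4 and -0.93 for PHO8. SPL2 and PHM8 had an array at the floor, so their differences of -1.58 and -4.92 are not exact. Each difference uses 4 single arrays and was not tested. Only those of VTC1, SPL2 and PHM8 exceed 1 log2 unit.

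Other genes of the pathway were read from lists of 26 measured genes. A list of 9 further genes linked to low phosphate included PHO3, the constitutive acid phosphatase, which low phosphate does not induce and which gave every lower call of the list. In the ubp10 mutant against the wild type 1 of the 9 was called higher and 1 lower, near the 9.90% and 7.64% of all genes. PHO3 was 2.18-fold lower. VTC5, a further subunit of the VTC complex, was 2.06-fold higher over 4 probe sets that did not move alike: 1 read 16.5 units in wild-type cells and 66.8 in the ubp10 mutant, another 35.3 and 26.4. In the sir4 mutant against the wild type 2 of the 9 were higher and 1 lower, where 6.03% and 9.65% of all genes were. PHO81, the inhibitor of the Pho85 kinase, was 2.41-fold higher, with 40.3 units in wild-type cells, 32.5 in the ubp10 mutant, 136.6 in the sir4 mutant and 73.7 in the double mutant. PHM6 was at least 2.94-fold higher, and PHO3 3.63-fold lower. As deposited GDE1, a glycerophosphocholine phosphodiesterase, was called higher as well, at 2.13-fold, where 19.8% of all genes were. PHO3 was also 4.34-fold lower in the double mutant against the wild type, the one call among the 9 there, where 6.63% of all genes were lower. As deposited PHM6 was called higher there too, at least 2.17-fold, where 18.6% of all genes were. In the double mutant against either single mutant 0 of the 9 were called. Of all genes 13.4% were higher and 13.2% lower against the ubp10 mutant, and 7.90% and 3.15% against the sir4 mutant. As deposited, 2 of the 9 were higher than in the ubp10 mutant, PHO81 by 2.27-fold and PHM6 by at least 2.17-fold, where 28.3% of all genes were. A probe set shared by PHO11 and PHO12, near-identical acid phosphatase genes, named no single gene. It read 60.6 units in wild-type cells, 41.2 in the ubp10 mutant, 238.4 in the sir4 mutant and 41.2 in the double mutant, so it was highest on the array labelled sir4 mutant.

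Among the signalling genes, KCS1 and PHO4 stood on opposite sides in the ubp10 mutant. KCS1, an inositol hexakisphosphate kinase, read 56 units in wild-type cells, 18.7 in the ubp10 mutant, 137.7 in the sir4 mutant and 94.3 in the double mutant. It was 2.91-fold lower in the ubp10 mutant than in the wild type and 3.57-fold higher in the double mutant than in the ubp10 mutant. PHO4, the transcription factor, read 23.9, 63, -1.7 and 9.7 units in the same order, highest where PHO84 was lowest. It was 2.71-fold higher in the ubp10 mutant than in the wild type, at least 5.04-fold lower in the sir4 mutant and 3.59-fold lower in the double mutant. In the double mutant it was 9.18-fold lower than in the ubp10 mutant. PHO80, the cyclin, was 2.04-fold higher in the ubp10 mutant than in the wild type and was not called as deposited, at 1.99-fold. These made 2 of the 8 signalling genes higher and 1 lower in the ubp10 mutant, where 9.90% and 7.64% of all genes were. As deposited 1 was higher and 1 lower, where 9.44% and 8.38% of all genes were. In the sir4 mutant against the wild type 0 were higher and 2 lower, where 6.03% and 9.65% of all genes were. The second lower gene was ADO1, adenosine kinase, at 2.07-fold, which was not called as deposited, at 1.47-fold. KCS1 was called higher as deposited, at 2.46-fold, where 19.8% of all genes were. In the double mutant against the wild type 0 were higher and 1, PHO4, was lower, where 4.30% and 6.63% of all genes were. Against the ubp10 mutant the double mutant had 1 higher and 2 lower, where 13.4% and 13.2% of all genes were. PHO85, lower beside PHO4 at 2.04-fold, was not called as deposited, at 1.44-fold. Against the sir4 mutant 1 was lower, SIW14, an inositol pyrophosphate phosphatase, by 2.06-fold, where 3.15% of all genes were.

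PHO90, a low-affinity phosphate transporter, was 2.57-fold lower in the ubp10 mutant than in the wild type, with 168.2 units against 444.5, and read 529.3 in the sir4 mutant and 454.9 in the double mutant. It was 1 of 3 low-affinity or vacuolar transporters measured, where 7.64% of all genes were called lower. None of the 3 was called in the other 4 comparisons, where 4.30% to 13.4% of all genes were higher and 3.15% to 13.2% lower. As deposited, PHO90 and PHO91, a vacuolar phosphate transporter, were called 2.70- and 2.37-fold higher in the double mutant against the ubp10 mutant, where 28.3% of all genes were. Of 6 genes for polyphosphate or pyrophosphate hydrolysis and related phosphatases, 0 were called in the ubp10 mutant against the wild type. Of all genes 9.90% were called higher there and 7.64% lower. IPP1, the inorganic pyrophosphatase, was the one call of the 6 in each of the sir4 and double mutants against the wild type, where 9.65% and 6.63% of all genes were lower. It was 2.29-fold and 2.20-fold lower, and neither was called as deposited, at 1.63- and 1.51-fold. In the double mutant against the ubp10 mutant 1 of the 6 was higher and 2 were lower, where 13.4% and 13.2% of all genes were. PHO13 was 2.09-fold higher, and PPX1, the cytosolic exopolyphosphatase, and IPP1 were 2.39- and 2.09-fold lower. As deposited neither PPX1 nor IPP1 was called, at 1.69- and 1.48-fold. PPN1, a vacuolar polyphosphatase, was then called higher beside PHO13, at 2.66-fold, where 28.3% of all genes were. Against the sir4 mutant 0 of the 6 were called, where 7.90% of all genes were higher and 3.15% lower.

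The genes whose 4-array profile was nearest to that of PHO84 were ranked by the root mean square difference of log2 values, each gene centred on its own mean. Of 4641 other genes above the floor on all 4 arrays, CPS1, a vacuolar carboxypeptidase, was nearest, at 0.42 log2 units, with 79.3 units in wild-type cells, 25.5 in the ubp10 mutant, 326 in the sir4 mutant and 89.6 in the double mutant. VTC3 was next, at 0.45, followed by OST2, a subunit of oligosaccharyltransferase, at 0.46, NSE5, of the Smc5-Smc6 complex, at 0.49 and ERG29, of ergosterol synthesis, at 0.49. PHO5 ranked 24, at 0.65. VTC1, VTC4 and PHO89 ranked 430, 438 and 439, VTC2 921 and PHO8 2642, while SPL2 and PHM8 had an array at the floor and were not ranked. Without the array labelled sir4 mutant, over 3 arrays and 4709 genes, OST2 ranked 5, NSE5 13, VTC3 24, ERG29 56 and CPS1 73. Of the 5 nearest genes 4 thus left the first 5 places when that array was left out.

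**Figure D4:**
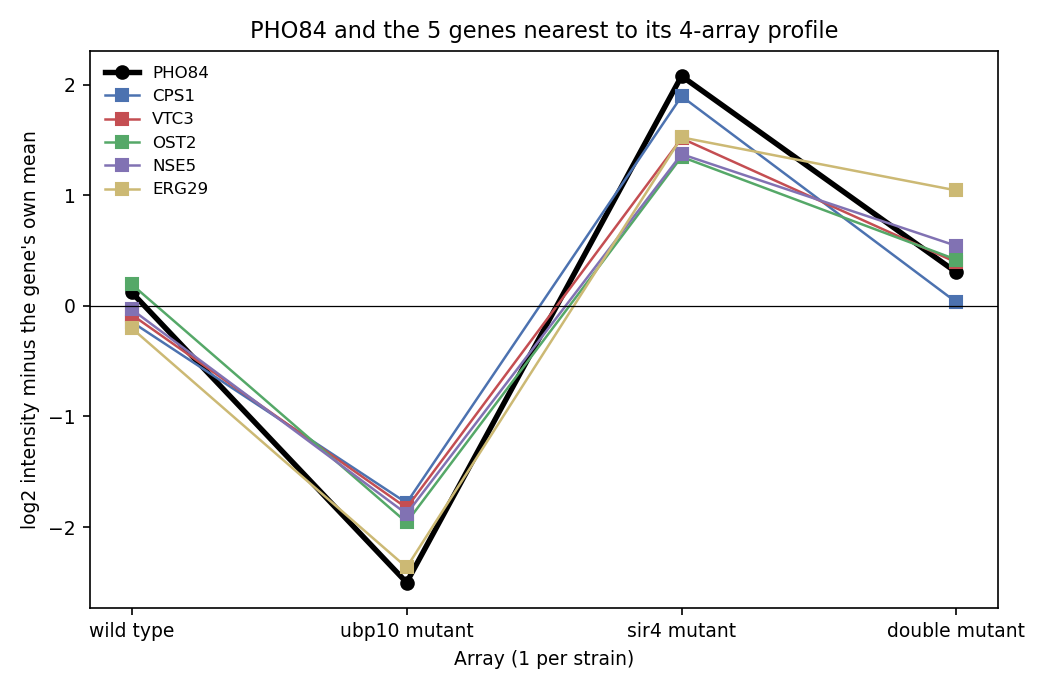
log2 intensity of PHO84 and of the 5 genes nearest to its profile, each minus the gene's own mean, on the 4 arrays (1 per strain); lines only join the points of a gene. As deposited, all 6 are lowest in the ubp10 mutant and highest on the array labelled sir4 mutant, and they spread most in the double mutant.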

How the data were processed

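The deposited intensity values were made by the authors with MAS 4.0, per the labels, and are linear average differences. A scaling step is not named there, but the trimmed mean (2nd to 98th percentile) was 100 units on all 4 arrays. Of 9275 non-control probe sets, 6504 had 1 gene symbol in the platform annotation, all matched to the RefSeq gene table of the species (assembly R64) by gene identifier; 328 had several symbols and 2443 were not listed. No sequence was used. The noise SD was 1.4826 times the median size of the negative values. Probe sets of one gene were floored and averaged as log2 values. Calls follow size alone, since each strain is 1 array. They were made relative to the median ratio, because as deposited 18.6% to 28.3% of all genes were called higher in the 3 comparisons with a shifted median. The members and lists were chosen with earlier results of these data known. Every member was named. Of other pathway genes up to 4 called members per list and comparison were named, and the 5 genes nearest to PHO84. Alternatives were the values as deposited, quantile normalization, cyclic loess, another floor, another ratio and another choice of probe sets; leaving out the array labelled sir4 mutant was chosen after seeing the data. Python 3.11.15, numpy 2.4.6, pandas 2.3.3, R 4.3.3 and limma 3.58.1 were used.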

Additional observations from a re-analysis of the deposited data

Results flagged for a closer look

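PHM8 had opposite calls in the 2 backgrounds. Removal of UBP10 came with a log2 ratio of at least 3.86 where SIR4 was present and of -1.06 where SIR4 was missing, a difference of -4.92. Removal of SIR4 came with at least 2.03 where UBP10 was present and -2.85 where it was missing, a difference of -4.88. Both differences come from the same 4 values, 6.4, 94.1, 38.4 and 18.5 units in the wild type, the ubp10 mutant, the sir4 mutant and the double mutant, and differ only through the median ratios. The wild-type value was under the floor. The lower call on removal of UBP10 without SIR4 lay only 0.06 log2 units past the 2-fold rule and was lost with a ratio of 3. That call and the higher call on removal of SIR4 with UBP10 present also use the array labelled sir4 mutant, whose ACT1 signal was uneven. The difference between backgrounds was not tested, since each strain has 1 array.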

How the results depend on the processing

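Each strain has 1 array, so no replicate could be left out. No paired analysis was possible because the labels give no replicate numbers and each group holds 1 array. The outcome of each of the 10 genes, called or not called, was repeated 450 times (5 comparisons, 9 alternatives). Of these, 416 kept their outcome, 19 gained a call, 15 lost a call and 0 calls changed to the other direction. A change of sign in a gene that was not called was not counted. VTC1 in the sir4 mutant against the wild type, for example, had a log2 ratio of -0.27 in the main setting and 0.22 as deposited. The 416 include genes that were not called and stayed so, and are not a count of calls kept. With the ratio for a call raised to 3, the members called lower in the ubp10 mutant against the wild type fell to 2. All genes called lower there fell to 1.61%. Members higher in the sir4 mutant against the wild type fell to 2, where 1.31% of all genes were. Those higher in the double mutant against the ubp10 mutant fell to 2, where 3.94% of all genes were. Those lower in the double mutant against the sir4 mutant fell to 2, where 1.08% of all genes were. With a ratio of 1.5, 1 member was higher and 1 lower in the double mutant against the wild type. These counts were near the shares of all genes, 13.3% higher and 14.4% lower. In the double mutant against the ubp10 mutant 2 members were then lower, near the 22.5% of all genes. PHM8 was the 1 member called higher in the double mutant against the wild type as deposited and under quantile normalization. Of all genes 18.6% and 5.11% were called so. With the floor doubled, 2 members in place of 4 were higher in the double mutant against the ubp10 mutant, where 11.6% of all genes were. PHO5 and PHO89 were no longer called there. PHO5 was then also not called in the ubp10 mutant against the wild type, at a log2 ratio of -0.65. With the floor halved, SPL2 was called lower in the ubp10 mutant, at -1.47. Under cyclic loess VTC3 was not called in the sir4 mutant against the wild type, at 0.86, nor PHO5 in the double mutant against the ubp10 mutant, at 0.95. Plain probe sets alone and the brightest probe set changed no call. The values of PHO89, SPL2, PHM8 and PHO5 near the floor limit what their ratios can show.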
